A study of Mus musculus with 6 samples.

Results

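The mitochondrial ribosomal proteins are the nuclear-encoded protein subunits of the ribosome that works inside mitochondria. They were taken as the genes whose name on the array begins with Mrpl or Mrps followed by a digit, each represented by its brightest probe over the 6 arrays. This gave 78 genes, carried by 102 probes, of 35527 gene names on the array. Of the 78, 77 passed the filter on dim probes and were tested among 21920 genes. All 77 were well above background on all 6 arrays. Of the 21920 genes tested, 18477 had a probe that was, which is 52.0% of the 35527 gene names before the filter. The remaining gene, the pseudogene Mrps36-ps1, did not rise well above background on an array and was not tested.

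RNA came from cardiomyocytes obtained by retrograde perfusion of adult mouse hearts 6 weeks after transverse aortic constriction (TAC), surgery in which the aorta is tied to a smaller bore so that the left ventricle has to pump against more pressure. The groups were H19 KO mice, which lack the long non-coding RNA H19, and wt littermates, with 3 arrays per genotype. All mice of both groups had the operation, so no value below compares a loaded with an unloaded heart. The H19 allele, the cells in which H19 is lost and the number of animals behind each array are not given in the sources used here, so the spread behind each p-value is that between samples and may be technical. Slide 1 carried replicate 1 of both genotypes, and slide 2 carried replicates 2 and 3.

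Mitochondrial ribosomes translate the few messenger RNAs of the mitochondrial genome, all of which encode membrane subunits of the respiratory chain and of ATP synthase. Their large subunit, built mostly from the Mrpl proteins, holds the centre that joins amino acids, and their small subunit, built mostly from the Mrps proteins, reads the messenger RNA. Some of these proteins have a counterpart in bacterial ribosomes and the others are specific to mitochondria. Cardiomyocytes depend on oxidative phosphorylation, and inherited defects of several subunits cause cardiomyopathy.

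H19 itself followed the labels. Levels are given as log2 signal over the 75th percentile of the array. H19 was at 0.80 ± 0.53 on wild-type and -6.32 ± 0.38 on knockout arrays (SD, n = 3 each), a difference of -7.12 (SE 0.32, adjusted p = 0.00236, limma). None of its 7 probes was well above background on a knockout array, against 5 or 6 on each wild-type array. Between 48.8% and 58.6% of spots were well above background on an array, and no spot was saturated. All 12 cardiomyocyte markers were detected, with a summed linear level of 2609 to 2735 times the 75th percentile in wild type and 2234 to 2591 in knockout. The 10 fibroblast markers summed to 170.2 to 338.1 in wild type and 257.6 to 512.3 in knockout. The 10 tested macrophage and myeloid markers summed to 50.5 to 67.3 in wild type and 31.1 to 66.1 in knockout, and the 5 tested erythroid markers to 17.4 to 246.4 and 9.34 to 319.9. Of the 4 atrial markers, Myl7, Myl4 and Sln were lower on all knockout arrays, as 8.67% of all genes tested were. The fourth, Nppa, differed by 0.02 (SE 0.15). The list's median difference was -3.15, and none of the 4 had an adjusted p under 0.05 in limma (smallest 0.488). These are bulk values, in which fewer cells of a type and less RNA per cell cannot be told apart, and the part of other cells in the results below was not tested.

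No mitochondrial ribosomal protein gene passed the test between the genotypes. None of the 77 tested genes had an adjusted p under 0.05 in limma, where 0.0319% of all genes did, and the smallest adjusted p was 0.637. None had an unadjusted p under 0.05, against 7.95% of all genes (0.999% higher and 6.95% lower in knockout). The arrays of the genotypes lay apart for 1 member, Mrps12, which was higher in knockout, against 10.5% of all genes (1.83% higher and 8.67% lower). Among the 18477 genes well above background on all 6 arrays, 5.57% had an unadjusted p under 0.05 in limma. The arrays lay apart for 8.33% of these. Knockout minus wild type was positive for 19 members and negative for 58, where 36.3% of all genes were positive and 63.7% negative. The median difference was -0.04 (log2) over the members and -0.06 over all genes tested.

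The signs depended on the scaling. Scaling each array to the median of all probes in place of the 75th percentile moved the median of all genes to 0.36 and that of the members to 0.39, with all 77 members positive. Such a change of scale shifts every gene alike, so the members' median exceeded that of all genes by 0.02 under both scalings. Where the gap could change, it was -0.025 with quantile normalization and 0.045 with normexp background correction. It was -0.001 among genes well above background on all 6 arrays, as the tested members were, and 0.143 without the filter on dim probes. Normexp background correction left 34 members positive, and quantile normalization 18. A sign below is therefore one on the scale of the 75th percentile.

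The precision of the arrays bounds what a difference could have been, on the scale used. Relative to the 75th percentile, the 95% interval of the difference lay within ±1 (log2) for 76 of 77 members, all except Mrps12, and within ±0.5 for 42. Over all members the lowest bound was -0.89 and the highest 1.23. The measured fold between the genotypes was under 1.2 for 75 members, the exceptions being Mrps12 and Mrpl55. Relative to the median of all probes, the interval lay within ±1 for 11 members and within ±0.5 for 0, the highest bound was 1.70, and the fold was under 1.2 for 1 member. A p above the threshold does not show that the genotypes were alike within these bounds.

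**Figure D1:**
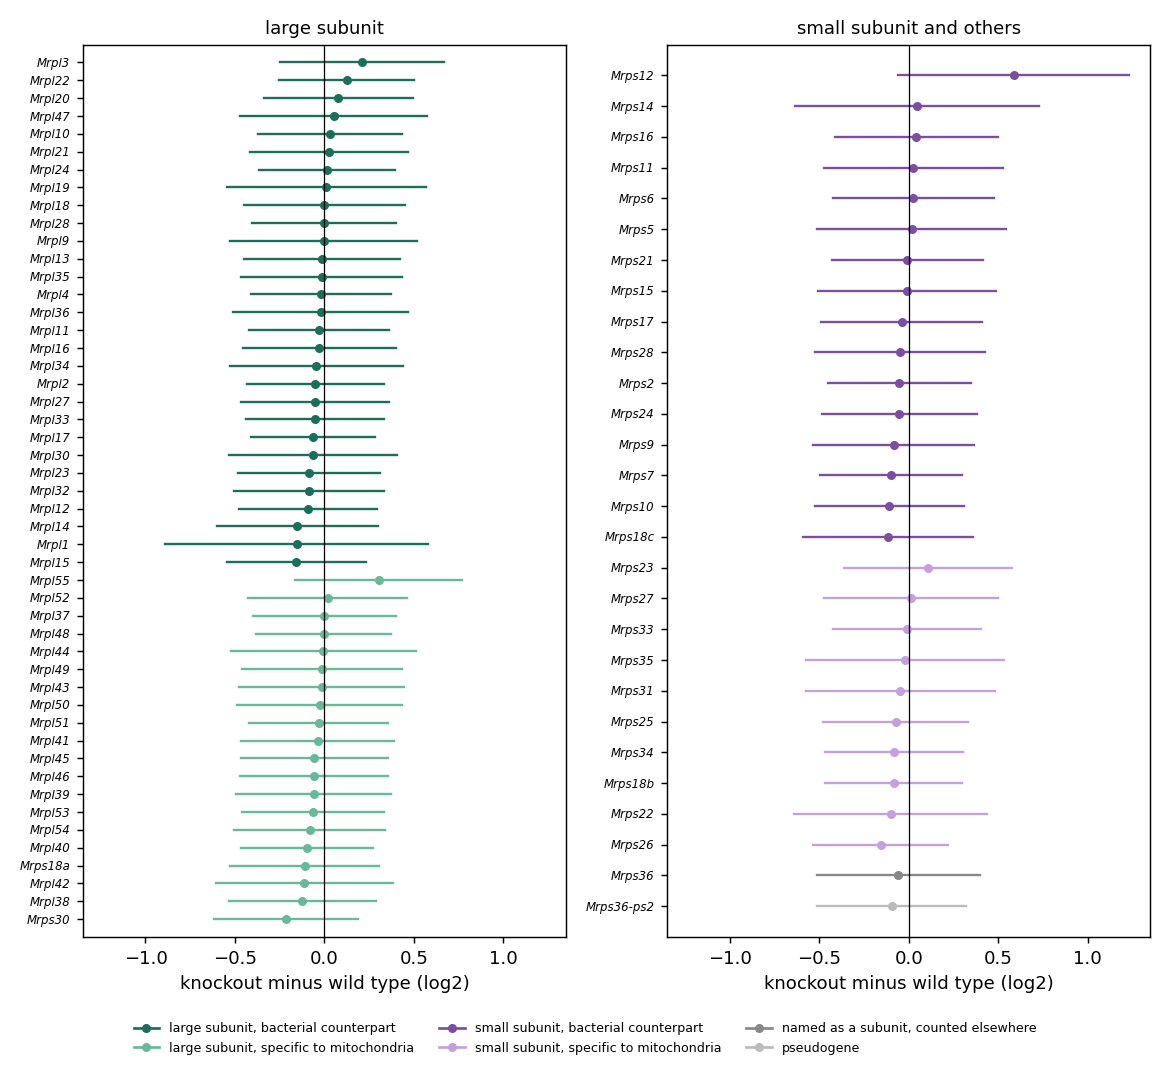
Difference between knockout and wild type (log2, horizontal axis) for each of the 77 tested mitochondrial ribosomal protein genes. Lines are 95% intervals from limma (3 arrays per genotype). Colours give the subunit and whether the protein was listed with a bacterial counterpart. Every interval crosses 0, and Mrps12 lies farthest from it at 0.58.

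The 4 structural classes, as assigned here, were each centred slightly below 0. No protein sequences were compared for this, and the placing of Mrpl55 with the proteins specific to mitochondria is uncertain. Of the 29 large-subunit proteins with a bacterial counterpart, 9 were positive and 20 negative, with a median of -0.02. Of the 20 large-subunit proteins listed as specific to mitochondria, Mrpl55 among them, 2 were positive and 18 negative (median -0.05). The 16 small-subunit proteins with a bacterial counterpart had 6 positive and 10 negative (median -0.03), and the 10 specific to mitochondria had 2 and 8 (median -0.06). Mrps30 and Mrps18a count with the large subunit here, where their proteins sit despite their names. Mrps36, whose protein is now counted with the 2-oxoglutarate dehydrogenase complex, differed by -0.06 (SE 0.19). The probe of the pseudogene Mrps36-ps2, at -0.10 (SE 0.18), lies 11 bases from that of Mrps36 on chromosome 13, and the transcripts of these genes cannot be told apart.

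Mrps12 encodes the small-subunit protein at the decoding centre, the counterpart of bacterial S12. Its single probe lies on chromosome 7 from 29524837 to 29524896 (mm9, minus strand). It read 4.58, 3.79 and 4.64 in wild-type replicates 1, 2 and 3 and 5.23, 4.79 and 4.74 in knockout replicates 1, 2 and 3. All knockout arrays were above all wild-type arrays, and wild-type replicate 2 stood below the other two of its group. The means were 4.34 ± 0.47 and 4.92 ± 0.27 (SD, n = 3 each), a difference of 0.58 (SE 0.27, 95% interval -0.06 to 1.23, 1.5-fold) with an adjusted p of 0.637 in limma. Slide 1 gave 0.66 and slide 2 gave 0.55. The difference fell to 0.31 without wild-type replicate 2.

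The start of Mrps12 lies 147 bases from that of Sars2, the mitochondrial seryl-tRNA synthetase, which is transcribed the other way. Sars2 charges the serine transfer RNAs that the same ribosome uses. It read 0.53, 0.57 and 0.57 in wild-type replicates 1, 2 and 3 and 0.50, -0.07 and 0.23 in knockout replicates 1, 2 and 3. All knockout arrays were below all wild-type arrays, though knockout replicate 1 was below by little. The difference was -0.34 (SE 0.18, adjusted p = 0.678 in limma), with -0.03 on slide 1 and -0.49 on slide 2. Neither gene of the pair passed the test, and whether their differences differ from each other was not tested.

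**Figure D2:**
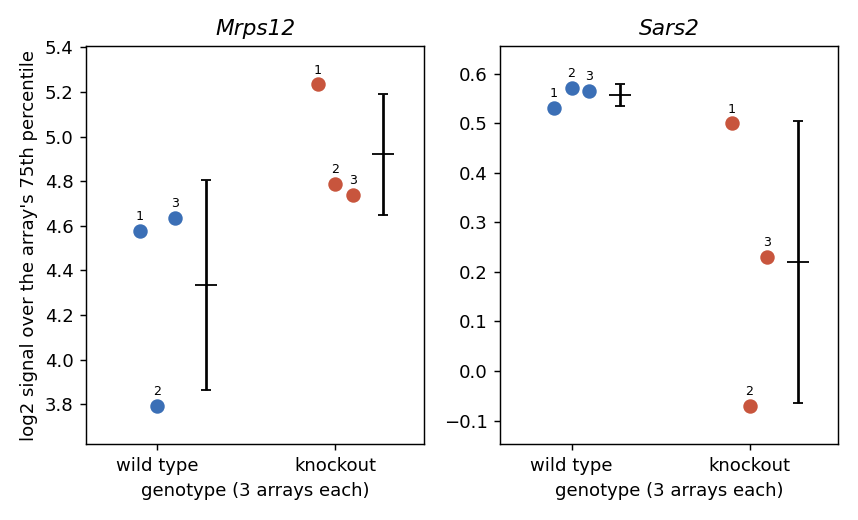
Level on each array (log2 signal over the array's 75th percentile, vertical axis) of Mrps12, left, and Sars2, right, by genotype; points are arrays numbered by replicate and bars the mean ± SD of 3 arrays. The 3 knockout points lie above the wild-type points for Mrps12 and below them for Sars2.

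Other members share such a head-to-head arrangement. In the RefSeq annotation of GRCm38.p6, 20 of the 67 members with an entry (29.9%) had a gene start on the opposite strand within 500 bases upstream, against 1317 of 17492 protein-coding genes (7.53%). Mrps11, of the small subunit, and Mrpl46, of the large, form such a pair with each other, with starts 42 bases apart. They differed by 0.03 (SE 0.21) and -0.06 (SE 0.17). The other 18 partners were all tested, and none passed the test or had an unadjusted p under 0.05 in limma. Of these, 7 were positive, and their median difference was -0.06. The arrays of the genotypes lay apart for 3 partners, against 10.5% of all genes, Sars2, Ighmbp2 (partner of Mrpl21, -0.12, SE 0.13) and Helq (partner of Mrps18c, -0.10, SE 0.13). Twnk, the mitochondrial DNA helicase, starts 116 bases from Mrpl43 and differed by -0.23 (SE 0.18). Ndufb5, a complex I subunit, starts 308 bases from Mrpl47 and differed by -0.04 (SE 0.18).

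Stretches just before the start of 6 members are shown because they carry motifs described next. Those of Mrps12 and Mrps11 also carry this arrangement. They are those of Mrps12, Mrpl55 and Mrps30, the members with the smallest p-values, of Mrps11 from the pair of members, and of Mrpl12 and Mrpl3 as examples of the NRF-1 and ETS motifs. They lie at chr7:28741822-28741967 (minus strand) for Mrps12, chr11:59202336-59202485 (plus) for Mrpl55 and chr13:118387253-118387402 (minus) for Mrps30, in RefSeq's GRCm38.p6. Those of the others lie at chr7:78783090-78783130 (plus) for Mrps11, chr11:120484487-120484636 (plus) for Mrpl12 and chr9:105053118-105053267 (plus) for Mrpl3. Each is read 5′ to 3′ on the gene's strand and ends at the base before the start, and those of Mrps12 and Mrps11 begin next to the partner's start. Capitals mark motif matches on either strand.
Mrps12: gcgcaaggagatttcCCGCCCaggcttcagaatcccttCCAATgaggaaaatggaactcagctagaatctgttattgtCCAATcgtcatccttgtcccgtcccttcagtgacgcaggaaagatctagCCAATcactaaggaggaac
Mrpl55: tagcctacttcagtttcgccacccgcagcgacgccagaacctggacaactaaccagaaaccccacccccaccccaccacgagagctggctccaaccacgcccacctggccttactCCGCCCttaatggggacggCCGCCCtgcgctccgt
Mrps30: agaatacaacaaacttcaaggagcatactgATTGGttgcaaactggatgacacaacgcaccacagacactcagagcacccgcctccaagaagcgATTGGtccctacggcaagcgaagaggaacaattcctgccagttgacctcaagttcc
Mrps11: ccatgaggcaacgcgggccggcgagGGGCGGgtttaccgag
Mrpl12: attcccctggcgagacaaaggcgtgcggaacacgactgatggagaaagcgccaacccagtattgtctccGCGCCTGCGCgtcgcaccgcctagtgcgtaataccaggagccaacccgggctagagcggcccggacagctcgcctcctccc
Mrpl3: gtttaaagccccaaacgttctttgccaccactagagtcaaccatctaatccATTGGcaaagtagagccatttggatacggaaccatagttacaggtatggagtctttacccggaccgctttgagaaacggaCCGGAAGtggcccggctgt

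The stretch shared by Mrps12 and Sars2 held 3 NF-Y matches and 1 Sp1 match, that shared by Mrps11 and Mrpl46 held 1 Sp1 match, and that of Mrpl12 held 1 NRF-1 match. NRF-1 and ETS-family factors such as GABP are known regulators of nuclear genes for mitochondrial proteins. Windows of 300 bases around the start, 250 before and 50 after, were searched on both strands, and matches of different motifs could overlap. The NRF-1 motif, of which the capitals in Mrpl12 are a match, occurred in 16.4% of the members' 73 windows, against 6.38% of the windows of protein-coding genes and 4.60% of all windows. CCGGAAG, the ETS motif, occurred in 32.9%, against 11.6% and 8.86%. AANATGGCG, the YY1 motif, occurred in 13.7%, against 3.12% and 2.38%. The shares lay closer together for GGGCGG of Sp1, at 52.1% against 46.2% and 35.7%, and for CCAAT of NF-Y, at 41.1% against 38.2% and 37.4%. The members' windows had a median GC content of 58.3%, against 56.3% for protein-coding genes, and a median ratio of observed to expected CpG of 0.82 against 0.57. These matches describe sequence, and binding was not measured.

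Mrpl55, a large-subunit protein, followed Mrps12 in size. It read 5.16, 5.32 and 5.29 in wild-type replicates 1, 2 and 3 and 5.80, 5.19 and 5.70 in knockout replicates 1, 2 and 3. Knockout replicates 1 and 3 were above all wild-type arrays, and knockout replicate 2 lay among them. The difference was 0.30 (SE 0.20, 95% interval -0.16 to 0.77, adjusted p = 0.760 in limma), with 0.63 on slide 1 and 0.14 on slide 2. Without knockout replicate 2 it was 0.49, and without knockout replicate 1 it was 0.19.

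Mrps30, a large-subunit protein, had the lowest difference. Its wild-type arrays read 3.86, 4.06 and 4.15 and its knockout arrays 4.02, 3.64 and 3.76, in replicate order. Knockout replicates 2 and 3 were below all wild-type arrays, and knockout replicate 1 lay among them. The difference was -0.21 (SE 0.17, 95% interval -0.62 to 0.19, adjusted p = 0.849 in limma), with 0.16 on slide 1 and -0.40 on slide 2. Mrps26, of the small subunit, read 5.80, 5.66 and 5.78 in wild type and 5.81, 5.45 and 5.50 in knockout. Its difference was -0.16 (SE 0.16), with 0.01 on slide 1 and -0.24 on slide 2.

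Among the other members with the smallest p-values in each direction, Mrpl3 is described below. Positive were also Mrpl22, which lines the exit tunnel, at 0.12 (SE 0.16), Mrps23 at 0.11 (SE 0.20), Mrpl20 at 0.08 (SE 0.18), Mrpl47 at 0.05 (SE 0.22) and Mrps16 at 0.04 (SE 0.19). Negative were Mrpl15 at -0.16 (SE 0.16), Mrpl14, at the interface with the small subunit, at -0.15 (SE 0.19), Mrpl38 at -0.12 (SE 0.17), Mrps18a at -0.11 (SE 0.17), Mrpl40 at -0.10 (SE 0.15) and Mrps10 at -0.11 (SE 0.18). Each of these differences was smaller than its own standard error, and the arrays of the genotypes overlapped for each.

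Subunits whose inherited defects cause mitochondrial disease in people, in several cases with cardiomyopathy, did not pass the test either. Mrpl3, whose protein reaches towards the centre that joins amino acids, read 5.29, 5.42 and 5.59 in wild type and 5.84, 5.31 and 5.77 in knockout, in replicate order. Its difference was 0.21 (SE 0.19), with 0.55 on slide 1 and 0.04 on slide 2, and its arrays overlapped. Mrpl44, which has an RNase III-like fold, read 4.22, 4.13 and 4.49 in wild type and 4.56, 3.88 and 4.38 in knockout. The knockout arrays of Mrpl44 enclosed the wild-type arrays, and the difference was -0.01 (SE 0.22).

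In the small subunit, Mrps14 read 3.15, 3.62 and 3.70 in wild type and 3.80, 2.96 and 3.86 in knockout. Its difference was 0.04 (SE 0.29), with 0.65 on slide 1 and -0.26 on slide 2, and the knockout values enclosed the wild-type ones. Mrps16 read 5.23, 5.39 and 5.57 in wild type and 5.71, 5.16 and 5.44 in knockout. Mrps22 read 3.57, 3.65 and 4.0 in wild type and 3.88, 3.23 and 3.80 in knockout, a difference of -0.10 (SE 0.23). The arrays of both overlapped. Mrpl12, the stalk protein that has also been reported to bind the mitochondrial RNA polymerase, read 5.30, 5.20 and 5.43 in wild type and 5.43, 5.07 and 5.15 in knockout. Its difference was -0.09 (SE 0.16), with 0.13 on slide 1 and -0.20 on slide 2.

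The brightness of the probes spanned a wide range, in which a probe's own sequence has a part, so levels are given per gene without ranking genes. Mrpl33, with one of the brightest probes, gave 7.40 ± 0.10 in wild type and 7.34 ± 0.20 in knockout (SD, n = 3 each). Mrps21 gave 6.79 ± 0.14 and 6.78 ± 0.24, and Mrpl2 gave 6.75 ± 0.09 and 6.70 ± 0.20. Among the dimmest were Mrpl1, of the stalk where spent transfer RNA leaves, at 1.40 ± 0.34 and 1.24 ± 0.54, and Mrps27 at 0.59 ± 0.07 and 0.60 ± 0.35. The group means of Mrpl35 lay below the 75th percentile, at -0.19 ± 0.12 and -0.20 ± 0.29, with knockout replicate 1 at 0.06. The genotypes overlapped for all 6.

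Of the members, 22 had more than 1 tested probe. The differences given by probes of a gene lay a median of 0.06 apart. They had opposite signs for 5 genes, Mrpl10 (0.03 and -0.01), Mrpl41 (-0.04 and 0.09), Mrpl47 (from -0.18 to 0.05 over 3 probes), Mrpl50 (-0.03 and 0.003) and Mrps2 (-0.05 and 0.07). The widest gap was in Mrps14, at 0.04 and 0.32. None of the 100 member probes passed in a limma fit of all 29990 probes.

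The members varied between arrays, and there they moved together. Each gene's deviation was taken from its own mean over the 6 arrays. All 77 members were above their mean in knockout replicate 1 and 75 in wild-type replicate 3, while 76 were below it in knockout replicate 2. Wild-type replicates 1 and 2 had 17 and 21 members above their mean, and knockout replicate 3 had 26. Of all genes, between 31.6% and 58.4% were above their own mean on an array.

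The members' mean deviation was 0.23, -0.25 and -0.01 in knockout replicates 1, 2 and 3 and -0.07, -0.06 and 0.17 in wild-type replicates 1, 2 and 3. The highest and the lowest value came from the same genotype. Knockout replicate 1 was the highest of the 6 arrays for 54 members and knockout replicate 2 the lowest for 66. Mrps12 took another course, as the only member above its mean in knockout replicate 2, by 0.16, and the farthest below it in wild-type replicate 2, at -0.83.

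**Figure D3:**
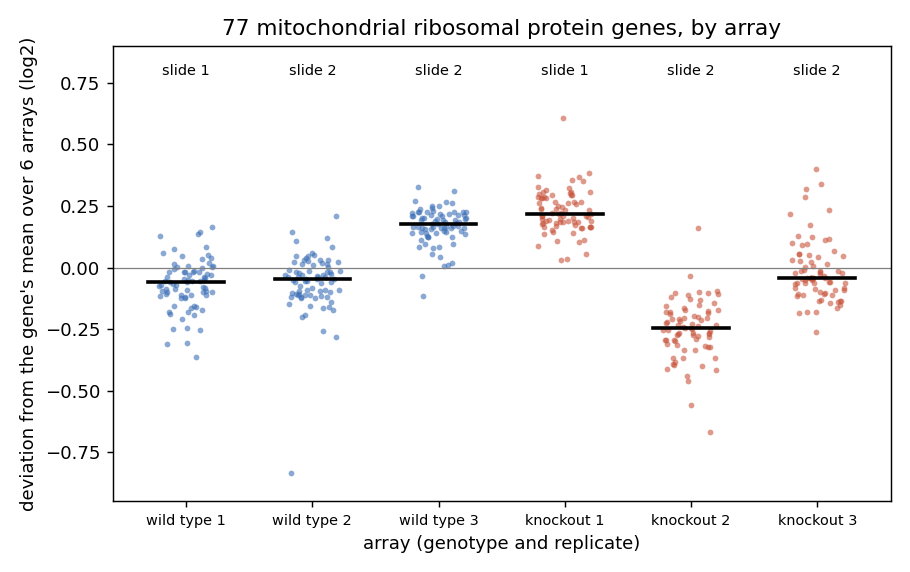
Deviation of each of the 77 genes from its own mean over the 6 arrays (log2, vertical axis), by array, with the slide given above; points are genes and bars medians. The medians are 0.22 in knockout replicate 1, 0.18 in wild-type replicate 3 and -0.25 in knockout replicate 2.

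The spread within the knockout group was wider than within wild type for most members. The SD between the 3 knockout arrays exceeded that between the 3 wild-type arrays for 71 of 77 members, against 52.7% of all genes tested. Because the members moved together, these are not 71 separate observations, and with 3 arrays per genotype a wider spread in knockout was not tested. The median SD of the members was 0.15 in wild type and 0.25 in knockout, while over all genes it was 0.22 in both. Over the 6 arrays a member's values spanned between 0.27 and 1.44, with a median of 0.51.

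The slides gave opposite signs. On slide 1, with 1 array per genotype, 75 of 77 members were higher in knockout, with a median difference of 0.30. On slide 2, with 2 arrays per genotype, 73 were lower, with a median of -0.20. The medians over all genes were -0.02 and -0.13. Positive on slide 1 and negative on slide 2 were 71 members, against 38.0% of all genes. Mrps12, Mrpl55, Mrpl3 and Mrps23 were positive on both slides, and Mrps10 and Mrps34 negative on both. With slide as a block in limma, no member passed the test or had an unadjusted p under 0.05. The slides differ in the samples they hold as well as in the hybridisation, and these cannot be told apart.

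**Figure D4:**
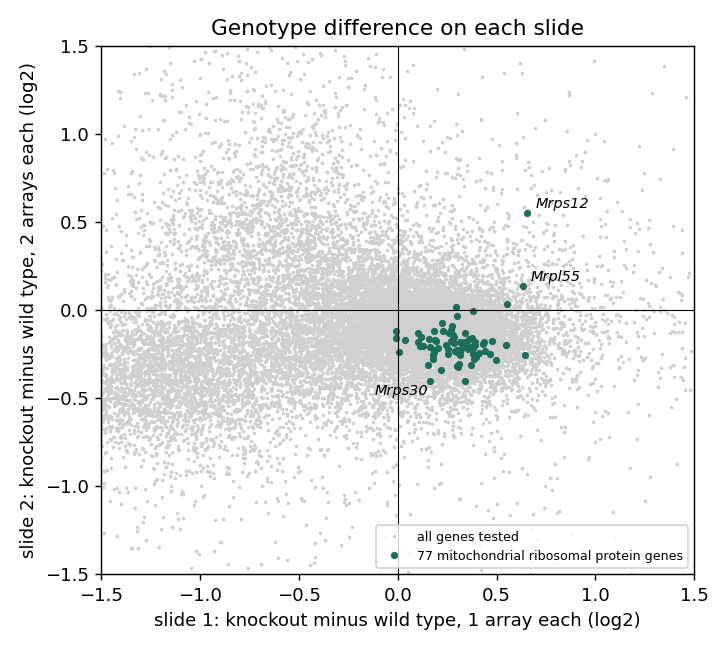
Knockout minus wild type (log2) on slide 1 (1 array per genotype, horizontal axis) and slide 2 (2 arrays per genotype, vertical axis) for the 77 members, green, and all genes tested, grey; both axes end at ±1.5, and 1340 genes lie beyond them. Of the members, 71 fall in the quadrant that is positive on slide 1 and negative on slide 2.

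Other genes of energy supply and protein synthesis were also highest on knockout replicate 1. The mean deviation of the 79 cytosolic ribosomal protein genes was 0.16, -0.14 and -0.07 in knockout replicates 1, 2 and 3 and -0.06, 0.00 and 0.11 in wild-type replicates 1, 2 and 3. That of 42 complex I genes was 0.21, -0.19 and -0.17 in knockout and -0.01, 0.03 and 0.12 in wild type. In knockout replicate 3 the median deviation was -0.012 for the complex I genes and -0.003 for the cytosolic ribosomal ones, so outlying genes lowered the means there. Both lists were lowest in knockout replicate 2, as the mitochondrial ribosomal proteins were. The 12 cardiomyocyte markers had 0.09, -0.21 and 0.00 in knockout and -0.01, 0.08 and 0.06 in wild type.

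Markers of other cells moved on the same arrays. The 10 fibroblast markers had a mean deviation of -0.35, 1.12 and 0.07 in knockout replicates 1, 2 and 3 and 0.33, -0.33 and -0.84 in wild-type replicates 1, 2 and 3. They were highest on knockout replicate 2, where the members were lowest, and lowest on wild-type replicate 3, where the members were high. The 5 erythroid markers had -2.41, 3.04 and -0.41 in knockout and 2.45, -1.14 and -1.53 in wild type. The 10 macrophage and myeloid markers had -0.66, 0.44 and -0.58 in knockout and 0.06, 0.18 and 0.55 in wild type, highest on wild-type replicate 3. The 9 endothelial markers had -0.40, 0.33 and 0.08 in knockout and 0.32, 0.06 and -0.39 in wild type. The 8 smooth muscle and pericyte markers had -0.33, 0.44 and -0.17 in knockout and 0.34, 0.39 and -0.67 in wild type. The part of these lists in the members' movement was not tested.

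**Figure D5:**
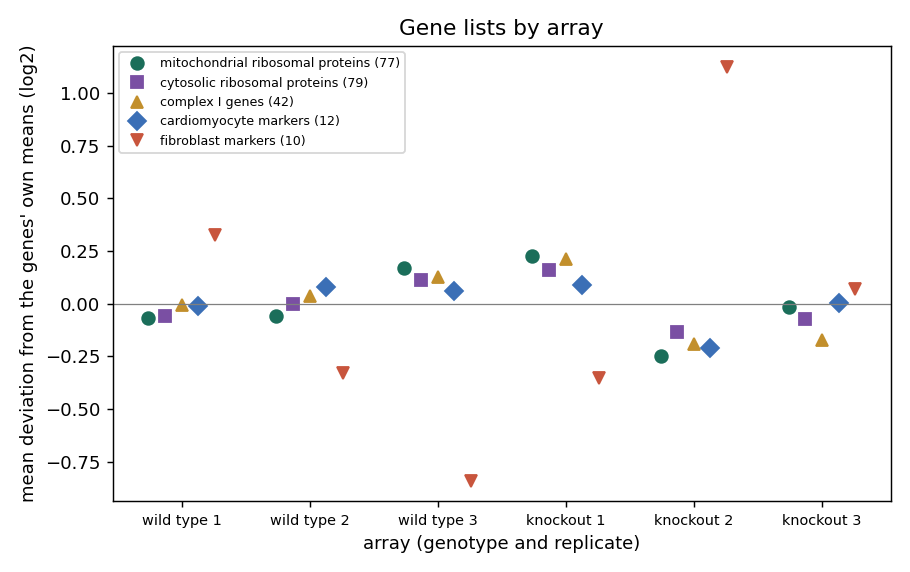
Mean deviation of 5 gene lists from the genes' own means over the 6 arrays (log2, vertical axis), by array; numbers in the key are genes. The mitochondrial ribosomal proteins, cytosolic ribosomal proteins and complex I genes are highest in knockout replicate 1, and the fibroblast markers are highest in knockout replicate 2. Outlying genes lower the complex I mean in knockout replicate 3, where the median was -0.012.

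Between the genotypes, the cytosolic ribosomal protein genes had 47 positive and 32 negative, with a median of 0.02, and the complex I genes 13 and 29, with a median of -0.04. None of either list passed the test, and unadjusted p-values under 0.05 numbered 1 (lower) for the former and 0 for the latter in limma. Slide 1 gave medians of 0.25 and 0.24, and slide 2 gave -0.11 and -0.18.

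The rest of the mitochondrial translation apparatus, in 6 lists, gave no gene past the test and none with an unadjusted p under 0.05 in limma. The 7 ribosome subunits with other names had 3 positive and 4 negative (median -0.06). Dap3, a GTP-binding protein of the small subunit, differed by 0.08 (SE 0.16). Of the ribosome assembly factors, 20 were tested, with 5 positive and 15 negative (median -0.05). Eral1, which binds the small-subunit ribosomal RNA, differed by -0.09 (SE 0.16).

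Among 15 translation factors, 6 were positive and 9 negative (median -0.03). The arrays of the genotypes lay apart for 1 of the 15, Guf1, a mitochondrial elongation factor, against 10.5% of all genes. Guf1 read 0.51, 0.54 and 0.43 in wild type and 0.79, 0.65 and 0.83 in knockout. All knockout arrays were higher, with a mean difference of 0.26 (SE 0.14, adjusted p = 0.674 in limma). Tufm, the elongation factor that delivers transfer RNA, differed by 0.02 (SE 0.19), and Oxa1l, which inserts new proteins into the inner membrane, by -0.21 (SE 0.17).

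Of 15 tested mitochondrial aminoacyl-tRNA synthetases, 3 were positive and 12 negative (median -0.09). The arrays lay apart for 2 of the 15, against 10.5% of all genes. These were Sars2 and Pars2, which charges the proline transfer RNA. Pars2 read 0.98, 0.97 and 1.12 in wild type and 0.91, 0.53 and 0.75 in knockout. Its difference was -0.29 (SE 0.16, adjusted p = 0.681 in limma). All knockout arrays of Pars2 were below all wild-type arrays.

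Of 8 genes for replication and transcription of mitochondrial DNA, 2 were positive and 6 negative (median -0.06). Tfam, which packs the mitochondrial genome and takes part in its transcription, differed by -0.04 (SE 0.19). Polrmt, the RNA polymerase, differed by -0.09 (SE 0.18). The templates of the ribosome itself were represented by 6 mitochondrially encoded messenger RNAs, of which 1 was positive and 5 negative (median -0.07). ND5, a complex I subunit, read 7.89, 7.96 and 7.83 in wild type and 7.81, 7.55 and 7.82 in knockout. It was lower on all knockout arrays, for replicates 1 and 3 by little, with a difference of -0.17 (SE 0.15). The arrays lay apart for ND5 alone of the 6, against 10.5% of all genes. ND6, encoded on the other strand, differed by 0.18 (SE 0.20) and COX1, the core of cytochrome c oxidase, by -0.09 (SE 0.16).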

How the data were processed

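RNA of cardiomyocyte fractions was hybridised to 1-colour Agilent arrays, 6 in all, grouped by the genotype in the labels. Per the file headers and the submitters' processing notes, the arrays were read out with Agilent Feature Extraction 10.7.3.1, and probe positions are mm9. It gives a background-subtracted intensity per spot. The authors' deposited value table holds intensity on a linear scale, with the same median of 69.7 in all 6 columns and a rank correlation of 1 with the scanner values, so it was normalized between arrays by a tool not given in the sources used here. It served as an alternative.

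The log2 of the processed intensity minus the array's 75th percentile was used. Spots of the same probe were averaged after removal of control spots (3671 of an array) and outlier-flagged spots, and of 55681 probes 32 had no usable spot on some array and were dropped. A probe had to be well above background on 3 or more of the 6 arrays, and a gene, as named in the files, was its brightest probe. The genotype contrast was fitted in R 4.3.3 with lmFit and eBayes of limma 3.58.1, with Benjamini-Hochberg adjustment over all 21920 genes at 0.05. The procedure was also run on simulated data in which each gene varied independently. Such data cannot tell how it performs on genes that move together. An exact permutation test of 3 against 3 cannot go below p = 0.10. The depth of an array is its signal over background, and the number of arrays limits the precision.

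The members and lists were chosen with earlier results of these data known. Members named are the 8 with the smallest p in each direction, a panel (Mrpl3, Mrpl44, Mrps14, Mrps16, Mrps22, Mrpl12), the 3 brightest and 3 dimmest, and those whose probes differ in sign; members of head-to-head pairs and Mrps34 were named after their values were seen. Promoter windows and gene starts were read from RefSeq tables of GRCm38.p6, used for sequence, names and neighbours only; 11 members had no window. Alternatives were quantile normalization, the median of all probes as the scale, normexp with offset 50, the deposited table, other filters, the mean of a gene's probes, updated names, replicate number or slide as a block, a trend with robust prior, array weights, single slides, leaving out each array, and, chosen after seeing the data, scaling to the members' median.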

Additional observations from a re-analysis of the deposited data

How the results depend on the processing

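No member passed an adjusted p of 0.05 in limma under any of the alternatives that give a test, in which the smallest adjusted p of a member ranged from 0.113 (array weights, fitted gene by gene) to 1. The members' median difference of -0.04 became 0.39 when arrays were scaled to the median of all probes and 0.30 within slide 1, and ranged from -0.16 to 0.08 when 1 array was left out, -0.16 without knockout replicate 1 and 0.08 without knockout replicate 2. Members with an unadjusted p under 0.05 numbered 0, and 2 on the scale of the all-probe median (Mrps12 and Mrpl55). They numbered 1 with quantile normalization, normexp, the deposited table, no filter on dim probes (Mrps36-ps1), a trend with robust prior and array weights, Mrps12 except where named, and from 0 to 1 with an array left out. Members whose arrays lay apart numbered 1 (10.5% of all genes), but 5 with quantile normalization (10.3%) and with the deposited table (10.2%). They numbered 25 with scaling to the members' median (8.29%) and 31 within slide 2 (37.2%). Scaling to the members' median takes out movement that the members share, so its count is not on a like footing with its share of all genes. It also lowered the difference of every gene, with a median of -0.09 for the members. With an array left out they ranged from 1 to 19, with 2 without wild-type replicate 1 (16.0%) or 2 (15.3%), 8 without knockout replicate 2 (20.4%) and 19 without knockout replicate 1 (24.6%).

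Of the 77 members, 19 were positive, against 77 on the scale of the all-probe median, 75 within slide 1, 4 within slide 2 and, with an array left out, from 4 (knockout replicate 1) to 62 (knockout replicate 2), with 58 without wild-type replicate 3. Of the 20 members named by p or panel, signs turned as follows, in log2 differences. The scale of the all-probe median gave Mrps30 0.21, Mrps26, Mrpl15 and Mrpl14 0.27, Mrpl38 0.30, Mrps18a 0.31, Mrps10 and Mrps22 0.32, Mrpl40 and Mrpl12 0.33 and Mrpl44 0.42. Within slide 1 the values were Mrps30 0.16, Mrps26 0.01, Mrpl15 0.15, Mrpl14 0.22, Mrpl38 and Mrps18a 0.18, Mrpl40 0.11, Mrpl44 0.34, Mrps22 0.31 and Mrpl12 0.13. Within slide 2 they were Mrpl22 -0.01, Mrpl20 -0.03, Mrpl47 -0.20, Mrps16 -0.18 and Mrps14 -0.26. Normexp gave Mrpl44 0.00, the mean of a gene's probes Mrpl47 -0.06, and array weights Mrpl44 0.14 and Mrps22 0.05. Scaling to the members' median gave Mrpl47 0.00, Mrps16 -0.01 and Mrps14 -0.01. With an array left out, the values spanned 0 for 8 of these 20, from -0.06 to 0.15 for Mrpl20, -0.15 to 0.19 for Mrpl44, -0.12 to 0.20 for Mrpl47, -0.12 to 0.33 for Mrps14, -0.10 to 0.18 for Mrps16, -0.22 to 0.00 for Mrps18a, -0.22 to 0.10 for Mrps22 and -0.05 to 0.19 for Mrps23. The signs of Mrps12, Mrpl55 and Mrpl3 did not turn under any alternative run, and Mrps12 ranged from 0.31 to 1.01. The cause of these changes was not tested.

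Samples of the same replicate number deviated together little (correlations over genes of -0.22, -0.05 and 0.04). Between samples of different numbers the lowest correlation was -0.27, for wild-type replicate 3 with knockout replicate 2. The highest was 0.33, for wild-type replicate 1 with knockout replicate 2. With 3 samples per genotype this does not settle whether the numbers pair the samples, and replicate 1 of both genotypes shared slide 1. With the replicate number as a block, no member passed, none had an unadjusted p under 0.05, and the median was -0.04, with 1 gene of 21920 past the threshold against 7 without the block. Signal well above background covered 48.8% to 58.6% of spots, which limits dim genes more than these members.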

Other observations

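Relative to the members' own median on each array, a scaling chosen after seeing the data, 6 of 77 members were positive and their median difference was -0.09. On this scale Mrps12 differed by 0.53 (SE 0.23), Mrpl55 by 0.25 (SE 0.16), Mrps30 by -0.27 (SE 0.12), Mrpl15 by -0.21 (SE 0.12) and Mrpl14 by -0.21 (SE 0.12). The smallest adjusted p of a member on this scale was 0.866 in limma, and none had an unadjusted p under 0.05. The arrays of the genotypes lay apart for 25 members (1 higher and 24 lower in knockout), against 8.29% of all genes on this scale, of which 7.28% were lower. They included Mrps12 (higher in knockout) and Mrps30, Mrpl15, Mrpl14 and Mrpl38 (lower). This scaling takes out the movement that the members share between arrays, and does not do so for other genes. The rise to 25 members is thus in part built in, and the share of all genes is not a like comparison. The array weights that limma estimated over all genes were highest for wild-type replicate 2 (3.06) and knockout replicate 3 (2.72), and lowest for wild-type replicate 3 (0.48).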
